A study of Mus musculus with 9 samples.

Results

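The 34 genes described here mark the endothelium, the single layer of cells that lines vessels. Of these, 27 are genes of blood vessels, 5 are genes of lymphatic vessels (Lyve1, Prox1, Flt4, Pdpn and Mmrn1), and 2 (Stab1 and Stab2) encode stabilins, scavenger receptors that were kept apart from both classes because macrophages also make them. They were taken by gene name from the 49585 genes of the deposited tables, where each name matched 1 row, and all 34 passed the filter on low reads. RNA of whole mouse skin was sequenced in 9 libraries, 3 from wild-type C57BL/6, 3 from wild-type BALB/c, and 3 labelled IL-6 -/-, a deletion of the cytokine interleukin-6, with C57BL/6 given as their strain and called KO-labelled here. The animals arrived aged 4 to 5 weeks, were acclimated for 2 weeks, and were 6 weeks old at the start, when their fur was shaved (day 0). They were otherwise untreated for 7 days until skin was taken on day 8. The protocol counts 6 mice for the knockout and 3 for each wild type, and does not tie a library to a mouse. Each p-value therefore weighs a difference against the scatter of these libraries, which can be technical. That scatter was uneven by chi-square per degree of freedom, a measure of how far the reads per gene of 2 libraries differ beyond depth. It was 4.35 for BALB/c replicates 2 and 3, but 35.2 and 32.9 between each and replicate 1. For IL-6 KO replicates 1 and 3 it was 6.57, but 47.2 and 32.1 between each and replicate 2. The C57BL/6 pairs gave 22.9 to 33.5.

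Il6 itself was read first, as the check of the knockout label. It had 2, 1 and 0 reads in C57BL/6, and 0, 2 and 0 in BALB/c. The KO-labelled libraries had 6, 24 and 1. These few reads do not bear out the label, but counts per gene do not show which exons they came from. Each direction given for those libraries rests on that label alone. Depth ranged from 6083876 to 6882193 exon reads in C57BL/6, from 6115739 to 6242332 in BALB/c, and from 3843953 to 4476346 in the KO-labelled libraries, whose tables were also laid out differently. Depth, table layout and group cannot be told apart here. Levels are given in CPM, reads scaled to a common library size (counts per 10 to the power 6 reads, after TMM). Fold changes are log2 values ± SE, and "lower", "higher" and "called" mean an adjusted p under 0.05 over all 14415 genes tested, by the quasi-likelihood test of edgeR, adjusted by Benjamini-Hochberg.

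Blood endothelium grows and survives on VEGF, read by the receptors Flt1 and Kdr, and on angiopoietins, read by Tek. Junction proteins such as Cdh5 hold the cells together, and ETS and SOX factors keep their genes on. Lymphatic endothelium arises from veins when Prox1 is turned on, depends on Flt4 as the receptor for VEGF-C, and drains fluid and immune cells from the dermis. In skin, both beds lie in the dermis and around hair follicles and muscle.

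Each member had reads in each library, except Stab2, which had 0 in IL-6 KO replicate 1. Per kilobase of exon, which allows genes to be compared, Plvap stood highest in C57BL/6 at 33.7 ± 10.9 CPM per kb (SD, n = 3), followed by Pecam1 at 22.1 ± 5.16 and Cdh5 at 18.8 ± 5.27, which lie within each other's spread. Pdpn at 15.5 ± 3.02 and Lyve1 at 10.2 ± 3.93 CPM per kb lay among the blood vessel genes. The lymphatic regulators were much lower, with Flt4 at 0.958 ± 0.249 and Prox1 at 0.442 ± 0.0636 CPM per kb, the latter next to Stab2 (0.327 ± 0.119), the lowest, and within its spread. In BALB/c, Plvap (15.7 ± 1.13), Pdpn (13.7 ± 4.50) and Lyve1 (12.2 ± 3.83) led and overlapped in spread, and in the KO-labelled libraries, Plvap (21.3 ± 0.863) and Pdpn (15.7 ± 5.40) led.

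Blood vessel genes were lower in the KO-labelled libraries than in C57BL/6. Of the 27, 23 were lower and 0 higher, with a median log2 fold change of −1.27 (from −1.85 for Nos3 to −0.15 for Sox7), against a median of 0.01 over all genes tested. Of all 14415 genes, 16.0% were lower and 19.2% higher in this comparison. In 26 of the 27 the highest KO-labelled library lay under the lowest C57BL/6 library, against 23.0% of all genes. None of the 5 lymphatic members was called (2 at an unadjusted p under 0.05; 0 with DESeq2), their median was −0.77, and of the stabilins Stab2 was lower. The difference between the classes was not itself tested. Summed over the 27 genes, blood vessel levels were 911, 788 and 1170 CPM in C57BL/6 and 367, 486 and 410 in the KO-labelled libraries, groups that do not overlap. In whole skin, fewer endothelial cells and less RNA per cell cannot be told apart. Members called fell from 24 to 13 without C57BL/6 replicate 3 or IL-6 KO replicate 1, and to 15 without IL-6 KO replicate 3. A set of 11 blood vessel genes was called under each of the 18 alternatives tried (Pecam1, Vwf, Flt1, Tek, Esam, Erg, Robo4, Egfl7, Mmrn2, Clec14a and Ptprb). Below, the settings said to end a gene's call do not list a fit with a term for replicate number (the replicate block). Nor do they list the joint omission of IL-6 KO replicate 2 and BALB/c replicate 2. Some calls ended there too, such as that of Emcn in this comparison (adjusted p = 0.0609 and 0.0539).

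BALB/c skin gave fewer calls. Against C57BL/6, 5 blood vessel members were lower and 0 higher (Vwf, Mmrn2, Plvap, Cd93 and Aplnr), where 1.78% of all genes were lower and 1.63% higher. All 27 had a negative fold change, with a median of −0.72 (from −1.62 for Aplnr to −0.08 for Clec14a) against −0.01 over all genes, and in 13 the groups did not overlap, against 15.6% of all genes. The same 5 were lower in the KO-labelled libraries, but both comparisons share the C57BL/6 libraries. None of the lymphatic members was called (2 at an unadjusted p under 0.05; 0 with DESeq2), and their median was −1.13. The summed blood vessel level was 737, 528 and 379 CPM in BALB/c replicates 1, 2 and 3. These calls rest on few libraries: members called numbered 0 without BALB/c replicate 3, 1 without BALB/c replicate 2, 8 without BALB/c replicate 1, 2 without C57BL/6 replicate 1, and 3 without C57BL/6 replicate 2 or 3, without IL-6 KO replicate 3, or with scaling by library size alone.

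Set against BALB/c, the KO-labelled libraries were lower in 7 blood vessel members (Flt1, Tek, Esam, Robo4, Sox17, Egfl7 and Clec14a) and higher in 0. Of all genes, 17.4% were lower and 19.9% higher. As a share of the 34 members, the 7 lower are near the share of all genes lower, and the 0 higher are under the share higher. The median over the 27 was −0.56, against 0.01 over all genes, and 6 were lower and 1 higher without overlap between groups, where 24.0% of all genes were lower without overlap. None of the lymphatic members was called (1 at an unadjusted p under 0.05; 1 with DESeq2, Lyve1). Their median was 0.20, and turned to −0.07 without BALB/c replicate 1 and to −0.12 without IL-6 KO replicate 2. Without BALB/c replicate 1, the BALB/c library with the highest summed blood vessel level, the median was −0.14 and 1 member was called. Members called also numbered 1 without IL-6 KO replicate 3, 2 without IL-6 KO replicate 1, 4 without BALB/c replicate 2 or with library size alone, and 3 in a fit of only these groups.

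**Figure D1:**
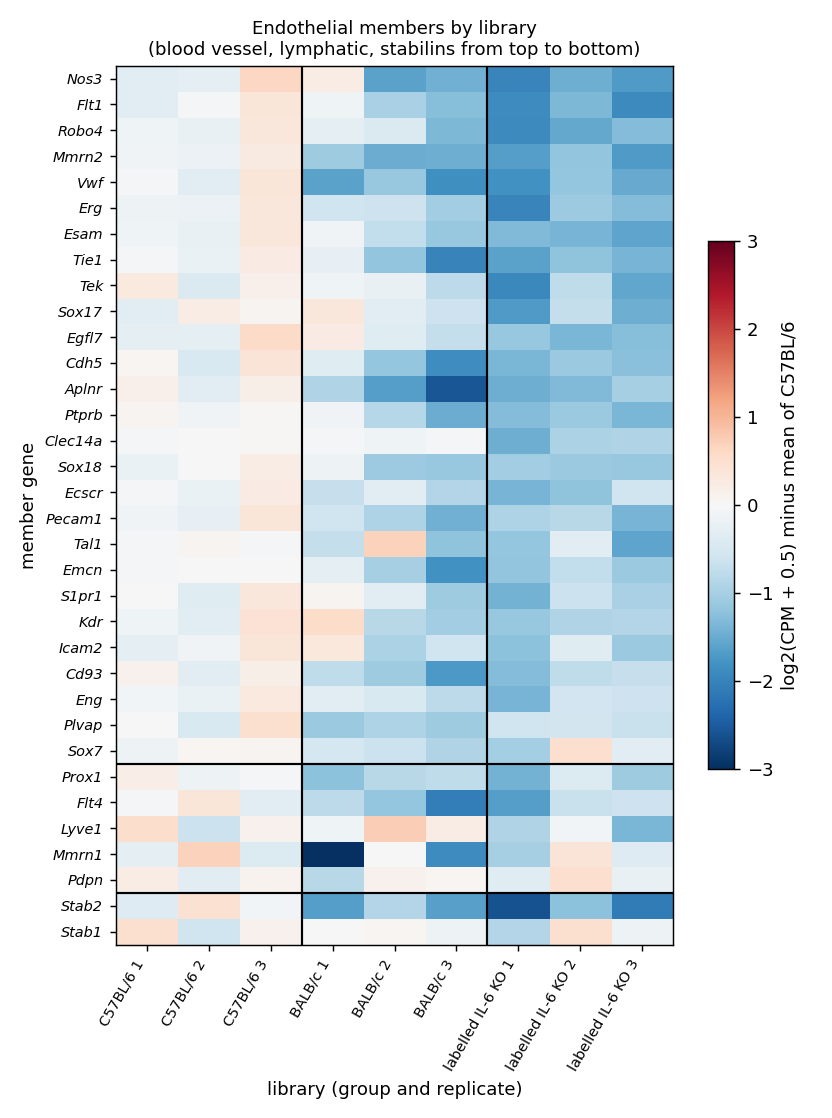
Level of each of the 34 members (rows) in each library (columns), as log2(CPM + 0.5) minus the mean of the 3 C57BL/6 libraries, with blue lower and red higher; horizontal lines part blood vessel genes, lymphatic genes and stabilins, and genes are ordered by fold change within each class. The blood vessel rows are blue in the 3 KO-labelled libraries except for Sox7 in replicate 2, and most are paler in BALB/c replicate 1 than in BALB/c replicate 3.

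**Figure D2:**
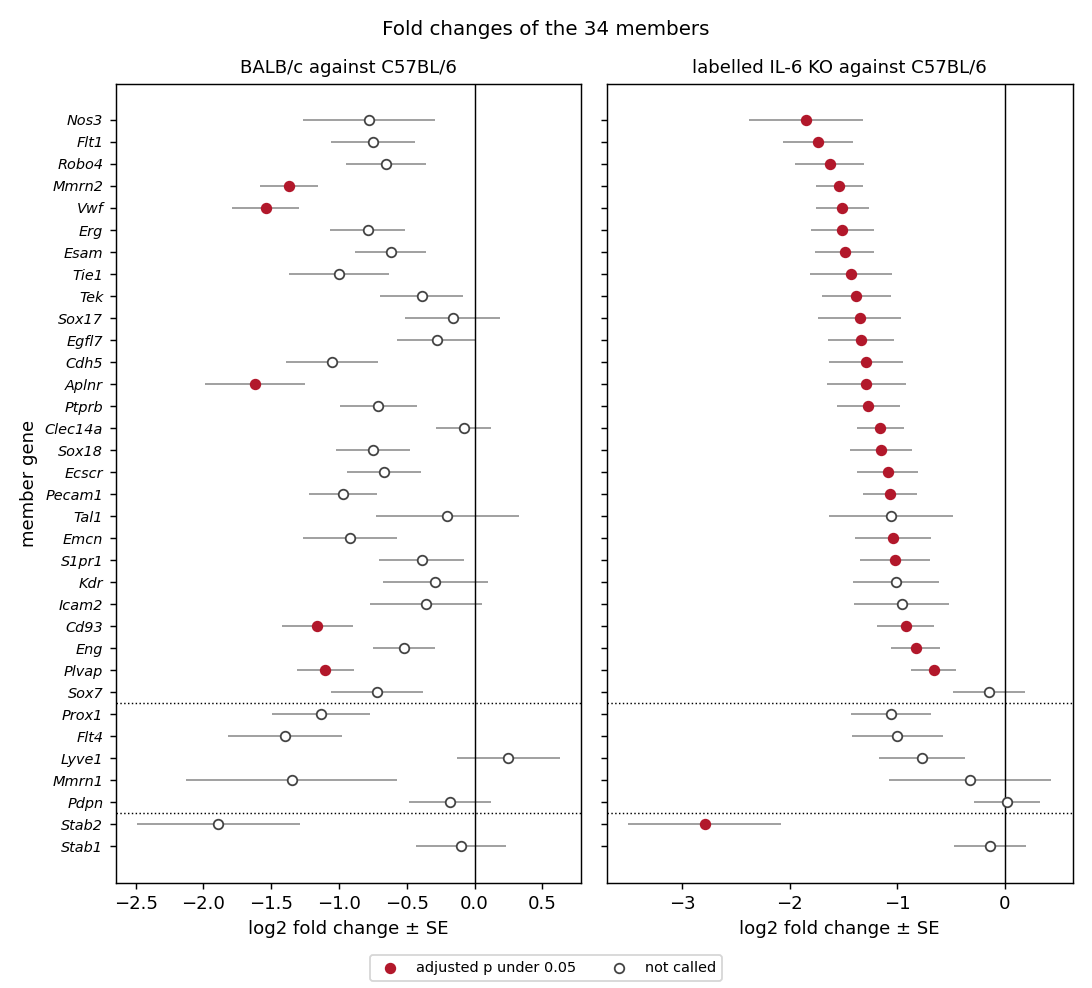
Log2 fold change (point) ± SE (bar) of the 34 members for BALB/c and for the KO-labelled libraries, both against C57BL/6; filled points have an adjusted p under 0.05. On the right 23 of the 27 blood vessel points and Stab2 are filled and none of the 5 lymphatic points is; on the left 5 blood vessel points are filled.

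Of the 7 junction, adhesion and surface genes, 6 were lower in the KO-labelled libraries than in C57BL/6. Pecam1 (CD31, an adhesion molecule of endothelial contacts; chromosome 11, 106654217 to 106750628, GRCm38, as for all positions here) stood at 86.7, 79 and 121 CPM in C57BL/6. Pecam1 gave 62.4, 49.2 and 34.2 CPM in BALB/c, then 49.2, 52.3 and 35.2 in KO-labelled libraries. For Pecam1, each C57BL/6 library stood above the other 6. Cdh5 (VE-cadherin, the main protein of their adherens junctions; chromosome 8, 104101625 to 104144511) was at 80.4, 56.4 and 101 CPM in C57BL/6. Cdh5 gave 59.5, 34.4 and 20.8 CPM in BALB/c, then 29.6, 35.6 and 31.8 in KO-labelled libraries. For Cdh5, C57BL/6 stood above the KO-labelled libraries, and BALB/c replicate 1 lay within the C57BL/6 range. Esam, an adhesion molecule of tight junctions (chromosome 9, 37528078 to 37538319), was at 33.1, 30.9 and 45.9 CPM in C57BL/6. Esam gave 33.6, 21.3 and 16.2 CPM in BALB/c, then 14, 13.4 and 11.7 in KO-labelled libraries. In all 3 genes each KO-labelled library was under each C57BL/6 library, and BALB/c was highest in replicate 1 and lowest in replicate 3. Pecam1 was lower than in C57BL/6 by 2.09-fold (−1.07 ± 0.253 at adjusted p = 0.0104), Cdh5 by 2.44-fold (−1.29 ± 0.346 at adjusted p = 0.0182) and Esam by 2.80-fold (−1.49 ± 0.276 at adjusted p = 0.00346). In BALB/c against C57BL/6 none of the 3 was called, but Pecam1 was with DESeq2 (adjusted p = 0.0130) and Cdh5 without BALB/c replicate 1 (adjusted p = 0.0400). Esam was also lower than in BALB/c (−0.86 ± 0.277 at adjusted p = 0.0352). The Esam call against BALB/c ended on leaving out 1 of IL-6 KO replicates 1, 2 and 3 and BALB/c replicates 1 and 2 (adjusted p between 0.0516 and 0.117) and in a fit of only the groups compared (adjusted p = 0.0585). The Cdh5 call ended on leaving out 1 of C57BL/6 replicate 3 and IL-6 KO replicates 1 and 3 (adjusted p between 0.0623 and 0.0643).

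Vwf, the clotting protein that endothelium stores for release (chromosome 6, 125546774 to 125686679), was at 63.6, 53.1 and 84.7 CPM in C57BL/6. Vwf gave 21.3, 29.6 and 18 CPM in BALB/c, then 18.5, 29.1 and 22.7 in KO-labelled libraries. It was about as low in BALB/c (2.92-fold; −1.54 ± 0.246 at adjusted p = 0.0105) as in the KO-labelled libraries (2.85-fold; −1.51 ± 0.248 at adjusted p = 0.00198), with a difference between these of 0.04 ± 0.252 at adjusted p = 0.924. Its BALB/c call ended on leaving out BALB/c replicate 3 (adjusted p = 0.0573). Plvap, which forms the diaphragms of fenestrae and caveolae (chromosome 8, 71497765 to 71511752), was at 64.4, 46.7 and 89.7 CPM in C57BL/6. Plvap gave 29.5, 33.8 and 30.5 CPM in BALB/c, then 42.3, 44.2 and 40.8 in KO-labelled libraries. It was lowest in BALB/c (−1.10 ± 0.209 at adjusted p = 0.0244) and lower than C57BL/6 in the KO-labelled libraries too (−0.66 ± 0.208 at adjusted p = 0.0351). Each BALB/c library lay under each KO-labelled one, but that difference was not called (0.44 ± 0.211 at adjusted p = 0.127). Plvap was called there on leaving out C57BL/6 replicate 2 (adjusted p = 0.0486) and in a fit of only the groups compared (adjusted p = 0.0227) and on unique exon reads (adjusted p = 0.0292). The BALB/c call for Plvap ended on leaving out 1 of C57BL/6 replicate 1 and BALB/c replicates 1, 2 and 3 (adjusted p between 0.0697 and 0.104). Its other call ended on leaving out 1 of C57BL/6 replicates 1 and 3 and IL-6 KO replicates 1 and 3 (adjusted p between 0.0653 and 0.109) and with scaling by library size alone (adjusted p = 0.0572) and in a fit of only the groups compared (adjusted p = 0.0641). Emcn, endomucin, a sialomucin of capillaries and veins (chromosome 3, 137341067 to 137432185), was at 14.1, 14.5 and 14.5 CPM in C57BL/6. Emcn gave 11.9, 6.98 and 3.73 CPM in BALB/c, then 6.08, 8.35 and 6.37 in KO-labelled libraries, near-equal in the C57BL/6 libraries and lower in the KO-labelled ones (−1.04 ± 0.357 at adjusted p = 0.0469). The Emcn call ended on leaving out 1 of C57BL/6 replicates 1, 2 and 3, IL-6 KO replicates 1 and 3 and BALB/c replicate 2 (adjusted p between 0.0619 and 0.136) and with scaling by library size alone (adjusted p = 0.0841). Icam2, an adhesion molecule for leukocytes, chosen for mention after its values were seen, ranged from 2.12 to 7.43 CPM and was not called (against C57BL/6, −0.96 ± 0.442 at adjusted p = 0.12).

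Among the receptors, Flt1 separated the KO-labelled libraries from both other groups. Flt1 (VEGF receptor 1, which binds VEGF-A, VEGF-B and placental growth factor; chromosome 5, 147561604 to 147726011) was at 35, 42.8 and 56.8 CPM in C57BL/6. Flt1 gave 40, 22.1 and 18 CPM in BALB/c, then 11.6, 17.1 and 11.3 in KO-labelled libraries. Each KO-labelled library lay under each library of the other groups, 3.35-fold under C57BL/6 on average (−1.74 ± 0.326 at adjusted p = 0.00362) and 1.99-fold under BALB/c (−1.0 ± 0.327 at adjusted p = 0.0382). The second of these calls ended on leaving out 1 of C57BL/6 replicate 2, IL-6 KO replicates 1 and 3 and BALB/c replicate 1 (adjusted p between 0.0515 and 0.129) and with scaling by library size alone (adjusted p = 0.0538) and in a fit of only the groups compared (adjusted p = 0.0703). Kdr (VEGF receptor 2, the main signalling receptor for VEGF-A), chosen for mention after its values were seen, was at 32.7, 28.8 and 48.5 CPM in C57BL/6. Kdr gave 52.4, 20 and 17.2 CPM in BALB/c, then 16.1, 18.9 and 19.1 in KO-labelled libraries. BALB/c replicate 1 was above all C57BL/6 libraries. In the KO-labelled libraries Kdr did not overlap C57BL/6 but was not called (−1.01 ± 0.402 at adjusted p = 0.0762), though it was called on leaving out BALB/c replicate 1 (adjusted p = 0.0069) and in a fit of only the groups compared (adjusted p = 0.0143) and with DESeq2 (adjusted p = 0.0487).

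Tek (TIE2, the angiopoietin receptor; chromosome 4, 94739289 to 94874976) was at 55, 33.1 and 50 CPM in C57BL/6. Tek gave 40.8, 38.4 and 26 CPM in BALB/c, then 11.4, 26.5 and 14.9 in KO-labelled libraries. Each KO-labelled library of Tek lay under each C57BL/6 library, and IL-6 KO replicate 2 within the BALB/c range. Its partner Tie1 (chromosome 4, 118471191 to 118490061) was at 36.7, 33.3 and 45.3 CPM in C57BL/6. Tie1 gave 32.2, 16.5 and 9.08 CPM in BALB/c, then 12.2, 16.1 and 14.2 in KO-labelled libraries. Tie1 in BALB/c spread from just under C57BL/6, in replicate 1, to the lowest of the 9 libraries, in replicate 3. Ptprb (VE-PTP, the phosphatase that restrains TIE2; chromosome 10, 116301374 to 116389538) was at 73, 64.3 and 70.9 CPM in C57BL/6. Ptprb gave 64.8, 38.1 and 24.3 CPM in BALB/c, then 27.8, 32 and 26.5 in KO-labelled libraries. The 3 genes of this pathway were lower in the KO-labelled libraries than in C57BL/6, Tek by 2.60-fold (−1.38 ± 0.322 at adjusted p = 0.00993), Tie1 by 2.70-fold (−1.43 ± 0.381 at adjusted p = 0.0173) and Ptprb by 2.41-fold (−1.27 ± 0.294 at adjusted p = 0.00952). Tek was also lower than in BALB/c (−0.98 ± 0.322 at adjusted p = 0.038). The Tek call against BALB/c ended on leaving out 1 of C57BL/6 replicate 3, IL-6 KO replicates 1 and 3 and BALB/c replicates 1 and 2 (adjusted p between 0.0517 and 0.128) and with scaling by library size alone (adjusted p = 0.0579) and in a fit of only the groups compared (adjusted p = 0.0725). The Tie1 call ended on leaving out 1 of C57BL/6 replicate 3 and IL-6 KO replicates 1 and 3 (adjusted p between 0.0566 and 0.0626). Against C57BL/6, Tie1 and Ptprb in BALB/c were at −1.0 ± 0.367 at adjusted p = 0.182 and −0.71 ± 0.285 at adjusted p = 0.215, and both were called without BALB/c replicate 1 (adjusted p = 0.0291 and 0.0296).

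Nos3, the endothelial nitric oxide synthase that relaxes vessels (chromosome 5, 24364810 to 24384474), was at 13.5, 14 and 26.4 CPM in C57BL/6. Nos3 gave 19.9, 5.32 and 6.00 CPM in BALB/c, then 3.97, 5.90 and 4.88 in KO-labelled libraries. Its fold change of −1.85 ± 0.529 against C57BL/6 was the lowest of the blood vessel members (adjusted p = 0.0237), with C57BL/6 replicate 3 highest. The Nos3 call ended on leaving out 1 of C57BL/6 replicate 3 and IL-6 KO replicates 1 and 3 (adjusted p between 0.0761 and 0.0829). Exons of an antisense gene, Gm15587, overlap 25.2% of those of Nos3, but it had 12 reads in all libraries against 585 for Nos3. Whether reads were counted by strand is not given in the sources used here. Robo4, a guidance receptor that steadies vessels (chromosome 9, 37401897 to 37415115), was at 20.3, 18.8 and 28.2 CPM in C57BL/6. Robo4 gave 18.3, 16.1 and 8.43 CPM in BALB/c, then 5.55, 7.33 and 8.70 in KO-labelled libraries. It was 3.09-fold lower than in C57BL/6 (−1.63 ± 0.317 at adjusted p = 0.00434) and 1.97-fold lower than in BALB/c (−0.98 ± 0.319 at adjusted p = 0.0374). The Robo4 call against BALB/c ended on leaving out 1 of IL-6 KO replicates 1, 2 and 3 and BALB/c replicates 1 and 2 (adjusted p between 0.0592 and 0.12) and in a fit of only the groups compared (adjusted p = 0.0693).

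Eng (endoglin, a co-receptor for BMP and TGF-beta ligands; chromosome 2, 32646595 to 32682669) was at 59.2, 54.3 and 77.4 CPM in C57BL/6. Eng gave 50.3, 45.7 and 36.5 CPM in BALB/c, then 23.8, 41.9 and 40.8 in KO-labelled libraries. Eng did not overlap between C57BL/6 and either other group. S1pr1, the sphingosine-1-phosphate receptor that tightens junctions (chromosome 3, 115710433 to 115715072), was at 30.1, 22.8 and 37.9 CPM in C57BL/6. S1pr1 gave 31.5, 23.9 and 13.8 CPM in BALB/c, then 10.8, 18.7 and 14.9 in KO-labelled libraries. Both were lower in the KO-labelled libraries than in C57BL/6, Eng by 1.78-fold (−0.83 ± 0.232 at adjusted p = 0.0211) and S1pr1 by 2.03-fold (−1.02 ± 0.325 at adjusted p = 0.0355). The Eng call ended on leaving out C57BL/6 replicate 3 (adjusted p = 0.0718) or on leaving out IL-6 KO replicate 1 (adjusted p = 0.0536) and with scaling by library size alone (adjusted p = 0.0541). For S1pr1 it ended on leaving out 1 of C57BL/6 replicates 1 and 3 and IL-6 KO replicates 1 and 3 (adjusted p between 0.075 and 0.117) and with scaling by library size alone (adjusted p = 0.0649). Aplnr, the apelin receptor of veins and sprouting cells (chromosome 2, 85136225 to 85139923), was at 29.4, 20.7 and 29.7 CPM in C57BL/6. Aplnr gave 13.9, 7.98 and 4.05 CPM in BALB/c, then 9.26, 10.2 and 12.9 in KO-labelled libraries. It was low in BALB/c (3.07-fold; −1.62 ± 0.366 at adjusted p = 0.047) and in the KO-labelled libraries (2.45-fold; −1.29 ± 0.367 at adjusted p = 0.023), with no overlap with C57BL/6 in either. For Aplnr in BALB/c the call ended on leaving out 1 of C57BL/6 replicates 1, 2 and 3, IL-6 KO replicates 1 and 3 and BALB/c replicates 2 and 3 (adjusted p between 0.062 and 0.154) and with scaling by library size alone (adjusted p = 0.0595) and in a fit of only the groups compared (adjusted p = 0.0593). Its other call ended on leaving out 1 of C57BL/6 replicates 1 and 3 and IL-6 KO replicate 1 (adjusted p between 0.0629 and 0.0765).

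Of the transcription factors, Erg and 2 of the 3 SoxF genes fell. Erg, an ETS factor that keeps endothelial genes on (chromosome 16, 95359169 to 95586593), was at 10.5, 10.4 and 15 CPM in C57BL/6. Erg gave 7.64, 7.48 and 5.51 CPM in BALB/c, then 2.64, 5.29 and 4.46 in KO-labelled libraries. The C57BL/6 libraries stood above all others and BALB/c lay between (against C57BL/6, −0.79 ± 0.277 at adjusted p = 0.162), with the KO-labelled libraries 2.85-fold lower (−1.51 ± 0.297 at adjusted p = 0.00452). Sox17, a SOX factor of arteries (chromosome 1, 4490931 to 4497354), was at 6.30, 9.40 and 8.54 CPM in C57BL/6. Sox17 gave 10.3, 6.32 and 5.03 CPM in BALB/c, then 2.12, 4.68 and 2.55 in KO-labelled libraries, and was lower in the KO-labelled libraries than in C57BL/6 (−1.35 ± 0.385 at adjusted p = 0.0236) and than in BALB/c (−1.19 ± 0.387 at adjusted p = 0.0369). The Sox17 call against C57BL/6 ended on leaving out 1 of C57BL/6 replicates 2 and 3 and IL-6 KO replicates 1 and 3 (adjusted p between 0.0615 and 0.0896). The Sox17 call against BALB/c ended on leaving out 1 of IL-6 KO replicates 1 and 3 and BALB/c replicates 1 and 2 (adjusted p between 0.0593 and 0.126) and with scaling by library size alone (adjusted p = 0.059) and in a fit of only the groups compared (adjusted p = 0.0762). Sox18, mutated in a form of human lymphedema with hair loss (chromosome 2, 181669836 to 181671640), was at 14.5, 16.6 and 19.9 CPM in C57BL/6. Sox18 gave 15, 7.65 and 7.46 CPM in BALB/c, then 7.93, 7.53 and 7.43 in KO-labelled libraries, lower in the KO-labelled libraries (−1.15 ± 0.288 at adjusted p = 0.0136). The Sox18 call ended on leaving out IL-6 KO replicate 3 (adjusted p = 0.0505). Sox18 in BALB/c was at −0.75 ± 0.276 at adjusted p = 0.18, and called without BALB/c replicate 1 (adjusted p = 0.0363).

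Sox7 and Tal1 were not called, and were chosen for mention after their values were seen. Sox7, the remaining SoxF gene, was at 11.5, 13.4 and 13.7 CPM in C57BL/6. Sox7 gave 8.76, 7.98 and 6.65 CPM in BALB/c, then 6.08, 18.3 and 10.2 in KO-labelled libraries, so that IL-6 KO replicate 2 lay above all C57BL/6 libraries (−0.15 ± 0.335 at adjusted p = 0.763). It was the single blood vessel member whose KO-labelled libraries overlapped C57BL/6. Tal1, a factor shared by endothelium and blood precursors, was at 4.61, 5.07 and 4.64 CPM in C57BL/6. Tal1 gave 2.71, 7.98 and 1.78 CPM in BALB/c, then 1.85, 3.66 and 1.27 in KO-labelled libraries, with BALB/c replicate 2 highest of the 9. Its fold change in BALB/c was −0.20 ± 0.530 with that library and −1.07 ± 0.456 without it (adjusted p = 0.874 and 0.316), and in the KO-labelled libraries −1.06 ± 0.579 at adjusted p = 0.182. In the same BALB/c library the platelet and megakaryocyte list summed to 555 CPM, against 39.3 to 81.2 in the other 8, and the erythroid list to 2230 CPM, against 138 to 543. That library also had 130 reads of Xist, the RNA of the inactive X chromosome, against 0 to 5 in the other 8, and the sources used here do not give the sex of the mice. The part of these differences in the Tal1 level was not tested.

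The matrix protein Mmrn2 and its receptors were all lower in the KO-labelled libraries than in C57BL/6. Mmrn2, a matrix protein that binds CD93 and CLEC14A (chromosome 14, 34375504 to 34404287), was at 29.8, 28.2 and 39 CPM in C57BL/6. Mmrn2 gave 15, 11.1 and 11.2 CPM in BALB/c, then 9.78, 13.8 and 9.55 in KO-labelled libraries. C57BL/6 stood apart from both other groups, 2.59-fold over BALB/c (−1.37 ± 0.212 at adjusted p = 0.00914) and 2.91-fold over the KO-labelled libraries (−1.54 ± 0.218 at adjusted p = 0.00109). The BALB/c call ended on leaving out BALB/c replicate 2 (adjusted p = 0.0538) or on leaving out BALB/c replicate 3 (adjusted p = 0.0571). Cd93 (chromosome 2, 148436640 to 148443563) was at 50.4, 36.8 and 51.4 CPM in C57BL/6. Cd93 gave 26.9, 21.5 and 13.5 CPM in BALB/c, then 18.2, 26.9 and 28 in KO-labelled libraries. C57BL/6 stood above all other libraries here too, with Cd93 lower in BALB/c (−1.16 ± 0.263 at adjusted p = 0.047) and in the KO-labelled libraries (−0.92 ± 0.264 at adjusted p = 0.0246). The BALB/c call for Cd93 ended on leaving out 1 of C57BL/6 replicates 1, 2 and 3, IL-6 KO replicate 3 and BALB/c replicates 2 and 3 (adjusted p between 0.0585 and 0.137) and with scaling by library size alone (adjusted p = 0.0672). Its call in the KO-labelled libraries ended on leaving out 1 of C57BL/6 replicates 1 and 3 and IL-6 KO replicate 1 (adjusted p between 0.0679 and 0.0844) and with scaling by library size alone (adjusted p = 0.0516).

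Clec14a, the other receptor of Mmrn2 (chromosome 12, 58264720 to 58269258), was at 9.22, 9.69 and 9.84 CPM in C57BL/6. Clec14a gave 9.23, 8.65 and 9.41 CPM in BALB/c, then 3.17, 4.68 and 4.88 in KO-labelled libraries. C57BL/6 and BALB/c overlapped within 8.65 to 9.84 CPM (−0.08 ± 0.202 at adjusted p = 0.879), and each KO-labelled library lay under 5 CPM. It was lower there than in C57BL/6 (−1.16 ± 0.219 at adjusted p = 0.00375) and than in BALB/c (−1.08 ± 0.219 at adjusted p = 0.00501), and both calls held under each of the 18 alternatives, for the second with adjusted p up to 0.0191. Egfl7, a secreted protein of sprouting vessels (chromosome 2, 26580014 to 26593120), was at 31.5, 30.9 and 56.6 CPM in C57BL/6. Egfl7 gave 45.4, 29.6 and 22.9 CPM in BALB/c, then 16.9, 14.5 and 15.5 in KO-labelled libraries. It too was lower in the KO-labelled libraries than in C57BL/6 (−1.34 ± 0.308 at adjusted p = 0.0091) and BALB/c (−1.06 ± 0.308 at adjusted p = 0.0238). The Egfl7 call against BALB/c ended on leaving out 1 of IL-6 KO replicates 1 and 3 and BALB/c replicate 1 (adjusted p between 0.0557 and 0.0739). Ecscr, a surface protein of endothelial migration, was at 10.1, 9.10 and 12.6 CPM in C57BL/6. Ecscr gave 6.37, 8.15 and 5.51 CPM in BALB/c, then 3.70, 4.28 and 6.79 in KO-labelled libraries, lower in the KO-labelled libraries than in C57BL/6 (−1.09 ± 0.286 at adjusted p = 0.0163). The Ecscr call ended on leaving out C57BL/6 replicate 3 (adjusted p = 0.0542) or on leaving out IL-6 KO replicate 1 (adjusted p = 0.0587).

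The sequences before the start sites of the members were read for the core AGGAAG, through which ETS factors such as Erg act. Whether Erg or another factor has a part in the members' levels was not tested. The RefSeq promoter table (GRCm38.p6) held 17 of the 34 members, in 23 windows from 250 bases before to 50 after a start. AGGAAG, searched on both strands, was in the windows of 7 of 11 blood vessel members (63.6%), 0 of 4 lymphatic members and both stabilins, against 38.4% of all 27025 genes of the table. The longer AACAGGAA, a joint site of FOX and ETS factors, was in 2 of the 17 members (11.8%; Egfl7 and Emcn), against 2.96% of all genes, and in both it overlapped an AGGAAG match. ACAATG, a SOX core, was in 11.8% of the members and 14.3% of all genes. A match here is a description of letters and not of binding. Chosen after the matches were seen, the 250 bases before the RefSeq start are shown for 3 blood vessel genes with a match, for 2 that were lower but had none, and for the lymphatic gene Pdpn. They run 5′ to 3′ in the direction of the gene, with AGGAAG or its reverse complement CTTCCT in capitals.
Flt1 (chr5:147726012-147726261, minus strand): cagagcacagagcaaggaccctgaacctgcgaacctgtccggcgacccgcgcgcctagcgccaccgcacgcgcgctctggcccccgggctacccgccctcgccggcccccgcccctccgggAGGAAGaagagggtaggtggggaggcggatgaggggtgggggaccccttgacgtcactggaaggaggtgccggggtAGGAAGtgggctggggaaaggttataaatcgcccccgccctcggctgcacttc
Eng (chr2:32646345-32646594, plus strand): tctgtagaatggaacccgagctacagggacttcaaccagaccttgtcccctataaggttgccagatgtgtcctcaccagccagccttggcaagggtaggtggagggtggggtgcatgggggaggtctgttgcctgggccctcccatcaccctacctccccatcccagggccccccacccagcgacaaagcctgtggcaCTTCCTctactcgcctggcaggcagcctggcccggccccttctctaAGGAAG
Emcn (chr3:137340828-137341077, plus strand): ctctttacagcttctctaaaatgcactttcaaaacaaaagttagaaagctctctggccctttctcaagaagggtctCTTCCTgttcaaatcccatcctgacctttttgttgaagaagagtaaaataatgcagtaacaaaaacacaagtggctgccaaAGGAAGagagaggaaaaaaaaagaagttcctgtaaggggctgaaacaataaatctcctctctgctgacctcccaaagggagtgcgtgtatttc
Tek (chr4:94739039-94739288, plus strand): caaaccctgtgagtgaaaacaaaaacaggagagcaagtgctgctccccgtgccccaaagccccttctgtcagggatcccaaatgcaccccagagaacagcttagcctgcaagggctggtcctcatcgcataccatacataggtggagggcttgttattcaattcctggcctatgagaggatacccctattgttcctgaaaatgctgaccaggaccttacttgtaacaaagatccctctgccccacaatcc
Clec14a (chr12:58269259-58269508, minus strand): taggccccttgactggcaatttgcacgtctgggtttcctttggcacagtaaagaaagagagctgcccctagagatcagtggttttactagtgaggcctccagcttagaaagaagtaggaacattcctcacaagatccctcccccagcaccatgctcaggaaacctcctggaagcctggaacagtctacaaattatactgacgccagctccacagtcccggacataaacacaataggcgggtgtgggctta
Pdpn (chr4:143299565-143299814, minus strand): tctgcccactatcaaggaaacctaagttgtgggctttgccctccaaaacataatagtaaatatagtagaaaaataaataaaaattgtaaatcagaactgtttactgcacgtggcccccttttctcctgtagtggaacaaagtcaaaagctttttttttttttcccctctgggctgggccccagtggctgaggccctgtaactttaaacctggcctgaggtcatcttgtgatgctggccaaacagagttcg
Flt1, Eng and Emcn held 2 matches each, and Tek, Clec14a and Pdpn held 0. In the KO-labelled libraries against C57BL/6, all 7 blood vessel members with a match were lower (Egfl7, Emcn, Eng, Erg, Flt1, Robo4 and Tie1). Of the 4 with a window and no match, Tek and Clec14a were lower and Kdr and Tal1 were not called. With or without a window, 23 of all 27 blood vessel members were lower, against 16.0% of all genes. A link between a match and the level was not tested.

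None of the lymphatic genes was called, and in the KO-labelled libraries against C57BL/6 their fold changes ran from −1.06 for Prox1 to 0.02 for Pdpn. Lyve1, a hyaluronan receptor that some macrophages also carry (chromosome 7, 110850607 to 110863239), was at 40.7, 17.9 and 31 CPM in C57BL/6. Lyve1 gave 25.8, 47.7 and 33.1 CPM in BALB/c, then 14.8, 26.9 and 10.6 in KO-labelled libraries. Its highest library was in BALB/c, where it overlapped C57BL/6 (0.25 ± 0.381 at adjusted p = 0.767), and its lowest were IL-6 KO replicates 1 and 3. Against C57BL/6 the KO-labelled libraries gave −0.77 ± 0.398 at adjusted p = 0.159, and against BALB/c −1.02 ± 0.397 at adjusted p = 0.0696. Without IL-6 KO replicate 2 both were called (adjusted p = 0.0311 and 0.0142), and DESeq2 called the second (adjusted p = 0.0412).

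Prox1, the factor that sets lymphatic identity (chromosome 1, 190118035 to 190170714), was at 4.30, 3.28 and 3.53 CPM in C57BL/6. Prox1 gave 1.27, 1.83 and 1.95 CPM in BALB/c, then 1.06, 2.65 and 1.49 in KO-labelled libraries. Prox1 was highest in the C57BL/6 libraries. Flt4, VEGF receptor 3 (chromosome 11, 49609263 to 49652739), was at 7.38, 10.1 and 6.13 CPM in C57BL/6. Flt4 gave 4.30, 3.16 and 1.46 CPM in BALB/c, then 2.12, 4.68 and 4.88 in KO-labelled libraries. For both genes each C57BL/6 library lay above each of the other 6. The differences were of the size seen in blood vessel genes, for Prox1 −1.13 ± 0.362 at adjusted p = 0.133 in BALB/c and −1.06 ± 0.375 at adjusted p = 0.052 in the KO-labelled libraries, and for Flt4 −1.40 ± 0.422 at adjusted p = 0.116 and −1.0 ± 0.422 at adjusted p = 0.0935, but none was called. Reads were few, with 124 for Prox1 and 258 for Flt4 over all 9 libraries. Prox1 was called in the KO-labelled libraries without replicate 2 of them (−1.51, adjusted p = 0.0129).

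Pdpn, podoplanin, which keratinocytes and fibroblasts also make (chromosome 4, 143267431 to 143299564), was at 32.6, 22.1 and 30.1 CPM in C57BL/6. Pdpn gave 15.4, 30.3 and 28.9 CPM in BALB/c, then 21.7, 39.7 and 24 in KO-labelled libraries. The groups overlapped throughout, with fold changes of −0.18 ± 0.303 at adjusted p = 0.787 for BALB/c, and 0.02 ± 0.305 at adjusted p = 0.973 for KO-labelled libraries. Mmrn1, a multimerin that platelets and lymphatic endothelium store (chromosome 6, 60924976 to 60989378), was at 6.46, 13 and 5.76 CPM in C57BL/6. Mmrn1 gave 0.318, 7.82 and 1.78 CPM in BALB/c, then 3.70, 10.4 and 5.94 in KO-labelled libraries. It spread more within BALB/c than between the groups' means. In BALB/c it was highest in replicate 2, the library with the raised platelet list (555 CPM). Of all libraries it was highest in C57BL/6 replicate 2 (13 CPM), whose platelet list was the lowest of its group (40.6 CPM). In IL-6 KO replicate 2, where Mmrn1 was at 10.4 CPM, that list summed to 81.2 CPM, the highest of its group. Between the KO-labelled libraries and BALB/c, Mmrn1 was not called (1.03 ± 0.802 at adjusted p = 0.334), but was higher in the former without BALB/c replicate 2 (2.64, adjusted p = 0.0340). The part of platelet RNA in the Mmrn1 level was not tested.

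Stab1 (chromosome 14, 31139013 to 31168641) was at 140, 66.1 and 111 CPM in C57BL/6. Stab1 gave 101, 105 and 90.2 CPM in BALB/c, then 55, 140 and 91.5 in KO-labelled libraries, with C57BL/6 replicate 1 and IL-6 KO replicate 2 equally high, and was not called (−0.10 ± 0.334 at adjusted p = 0.91 for BALB/c, and −0.14 ± 0.335 at adjusted p = 0.773 for KO-labelled libraries). The summed macrophage list was also highest in IL-6 KO replicate 2 (2570 CPM, against 1050 and 1350 in the other 2 of its group) and in C57BL/6 replicate 1 (2020, against 917 and 1460), and its part in Stab1 was not tested. Of the KO-labelled libraries, replicate 2 was also highest for Lyve1, Pdpn, Prox1 and Mmrn1, but not for Flt4. The summed blood vessel level was highest in that library too, at 486 CPM against 367 and 410. Stab2, the stabilin of sinusoids (chromosome 10, 86841203 to 87007942), was the rarest member, with 12, 25 and 13 reads in C57BL/6, 3, 7 and 3 in BALB/c, and just 0, 4 and 1 in KO-labelled libraries. It was lower in the last group (−2.79 ± 0.712 at adjusted p = 0.0146). The Stab2 call ended on leaving out IL-6 KO replicate 3 (adjusted p = 0.0668). Stab2 was also not among the members called in a fit of only the groups compared or on unique exon reads. BALB/c against C57BL/6 gave −1.89 ± 0.600 at adjusted p = 0.131 for Stab2, and its BALB/c libraries lay under all C57BL/6 libraries.

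**Figure D3:**
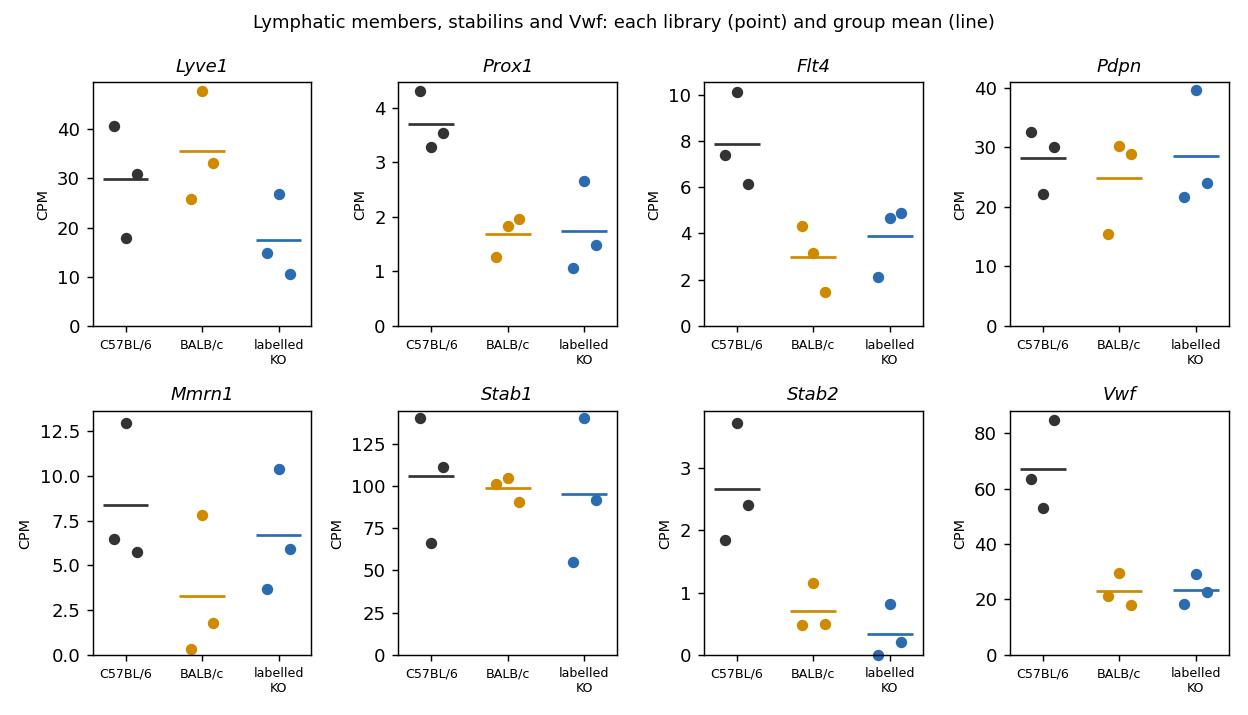
CPM (linear axes from 0) of the 5 lymphatic members, both stabilins and Vwf, 1 panel per gene; points are libraries, replicates 1 to 3 from left to right, and lines are group means. Prox1, Flt4, Stab2 and Vwf have all C57BL/6 points above all others, whereas Lyve1, Pdpn, Mmrn1 and Stab1 overlap between groups.

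The level of lymphatic relative to blood vessel genes was read as the mean log2(CPM + 0.5) of the 5 lymphatic genes minus that of the 27 blood vessel genes in each library. It was −0.97, −1.0 and −1.55 in C57BL/6 (−1.17 ± 0.33, SD, n = 3), −2.11, −0.64 and −0.83 in BALB/c (−1.19 ± 0.80), then −0.82, −0.29 and −0.71 in KO-labelled libraries (−0.61 ± 0.28). The KO-labelled libraries lay above those of C57BL/6, and BALB/c spread over both. This separation ended with Pdpn left out, when C57BL/6 gave −1.31, −1.23 and −1.92 and the KO-labelled libraries −1.32, −0.75 and −1.15. The means were then −1.49 for C57BL/6, −1.65 for BALB/c and −1.07 for KO-labelled libraries. The score compares different genes, so its sign and its distance from 0 say nothing of the amounts of the vessel types. BALB/c replicate 1 was lowest, and there Mmrn1 stood at −4.70 log2 units from the blood vessel mean. The blood vessel mean alone was 4.74 ± 0.24 for C57BL/6, 3.97 ± 0.45 for BALB/c and 3.56 ± 0.24 for KO-labelled libraries, and the lymphatic mean 3.57 ± 0.12, 2.77 ± 0.52 and 2.95 ± 0.52.

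**Figure D4:**
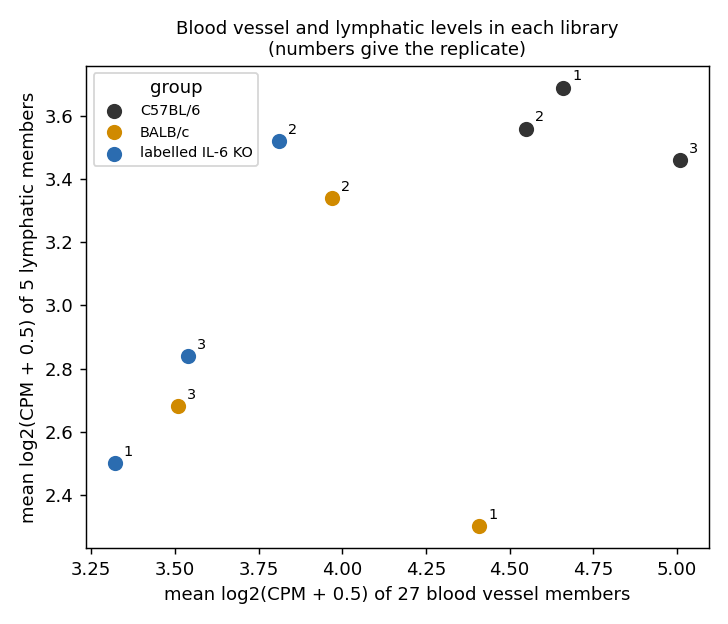
Mean log2(CPM + 0.5) of the 27 blood vessel members (horizontal) and the 5 lymphatic members (vertical) in each library, with the replicate number beside the point. The C57BL/6 libraries sit at the upper right, the KO-labelled libraries have blood vessel means from 3.32 to 3.81, and BALB/c replicate 1 combines a blood vessel mean of 4.41 with the lowest lymphatic mean, 2.30.

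Genes that act with the members were read from further lists, and their counts stand beside those of all genes. Against C57BL/6, 16.0% of all genes were lower and 19.2% higher in the KO-labelled libraries, 17.4% and 19.9% when these were set against BALB/c, and 1.78% and 1.63% in BALB/c against C57BL/6. Of 18 measured vascular ligands and co-receptors, 4 were lower and 1 higher in the KO-labelled libraries than in C57BL/6 (median −0.83). Vegfb, a ligand of Flt1, was at 36.9, 36.5 and 57.6 CPM in C57BL/6. Vegfb gave 57.2, 48.7 and 43.3 CPM in BALB/c, then 16.7, 16.3 and 16.1 in KO-labelled libraries, lower than in C57BL/6 (−1.41 ± 0.203 at adjusted p = 0.00113) with no overlap. Pdgfb, by which endothelium recruits pericytes, was lower too (−1.13 ± 0.256 at adjusted p = 0.00872), whereas Nrp2, a co-receptor of Flt4 that follicle cells can also carry, was higher (1.53 ± 0.295 at adjusted p = 0.00417). Vegfa was at 198, 76.2 and 59 CPM in BALB/c, with replicate 1 highest, and 25.9, 60.5 and 34 in KO-labelled libraries. Between these groups it was lower in the latter (−1.46 ± 0.478 at adjusted p = 0.0378). The Vegfa call ended on leaving out 1 of C57BL/6 replicate 1, IL-6 KO replicates 1 and 3 and BALB/c replicate 1 (adjusted p between 0.0503 and 0.135) and in a fit of only the groups compared (adjusted p = 0.0769). None of the 18 was called in BALB/c against C57BL/6 (4 at an unadjusted p under 0.05, 0 with DESeq2), with a median of −0.26. Between the KO-labelled libraries and BALB/c, 3 were lower and 1 higher, so the share lower was near that of all genes.

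The list of endothelial Notch and arteriovenous genes was split, with 5 higher and 6 lower of 18 in the KO-labelled libraries against C57BL/6 (median −0.35), where 16.0% of all genes were lower and 19.2% higher. Against BALB/c, 7 were higher and 3 lower. The endothelial ligand Dll4 was at 7.99, 9.25 and 11.9 CPM in C57BL/6. Dll4 gave 8.28, 7.65 and 4.22 CPM in BALB/c, then 2.91, 2.85 and 3.61 in KO-labelled libraries. It was lower there than in C57BL/6 (−1.62 ± 0.318 at adjusted p = 0.00444), as was the vein factor Nr2f2 (−1.37 ± 0.233 at adjusted p = 0.00236). Jag1 (1.42 ± 0.288 at adjusted p = 0.00523) and Unc5b (2.49 ± 0.390 at adjusted p = 0.0016), which epithelium and follicles also express, were higher. Of 44 other blood endothelial genes, 12 were lower and 2 higher than in C57BL/6 (median −0.56), and 10 lower and 2 higher than in BALB/c. Those that differed from C57BL/6 included Jam2 (−1.28 ± 0.205 at adjusted p = 0.00178), Arhgef15 (−1.86 ± 0.318 at adjusted p = 0.00235) and Myct1 (−1.49 ± 0.297 at adjusted p = 0.00483) on the lower side and Foxc1 (1.88 ± 0.330 at adjusted p = 0.00269) on the higher. In BALB/c against C57BL/6, 1 of the 18 (Cxcl12, −0.79 ± 0.155 at adjusted p = 0.0278) and 0 of the 44 were called (of the 44, 10 at an unadjusted p under 0.05 and 2 with DESeq2). The Cxcl12 call ended on leaving out 1 of C57BL/6 replicates 1 and 2, IL-6 KO replicate 3 and BALB/c replicates 2 and 3 (adjusted p between 0.0546 and 0.13) and with scaling by library size alone (adjusted p = 0.0805).

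Of 19 other lymphatic endothelial genes, 6 were lower and 4 higher in the KO-labelled libraries than in C57BL/6 (median −0.65), the share higher being near the 19.2% of all genes. Reln, a matrix glycoprotein that lymphatic endothelium secretes, was at 18.4, 17.2 and 16.3 CPM in C57BL/6. Reln gave 11.5, 9.31 and 6.97 CPM in BALB/c, then 3.17, 6.11 and 4.46 in KO-labelled libraries, with the groups apart (−1.90 ± 0.271 at adjusted p = 0.00112). Fxyd6, which nerve also expresses, was lower as well (−1.49 ± 0.189 at adjusted p = 6.97e-04). In BALB/c, Ccl21a, the chemokine by which lymphatic vessels draw dendritic cells, was at 2.55, 9.98 and 9.57 CPM against 32.6, 50.3 and 36.8 in C57BL/6 (−2.44 ± 0.458 at adjusted p = 0.0226). Near-identical copies of Ccl21a make its count uncertain, and its call ended on leaving out 1 of C57BL/6 replicates 1, 2 and 3 and BALB/c replicates 2 and 3 (adjusted p between 0.0546 and 0.0701). Between the KO-labelled libraries and BALB/c, 5 of the 19 were lower and 3 higher.

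Mural cells, which wrap small vessels, were read by 17 genes, of which 10 were lower and 0 higher in the KO-labelled libraries than in C57BL/6 (median −1.55). Rgs5, a pericyte gene, was at 158, 120 and 176 CPM in C57BL/6. Rgs5 gave 158, 142 and 93.7 CPM in BALB/c, then 39.4, 51.1 and 53.9 in KO-labelled libraries, and fell 3.14-fold (−1.65 ± 0.231 at adjusted p = 0.00103), and Abcc9 (−2.18 ± 0.265 at adjusted p = 6.16e-04) and Myh11 (−2.43 ± 0.290 at adjusted p = 5.74e-04) were lower too. Some of these genes are also on in other muscle. Between the KO-labelled libraries and BALB/c, 9 were lower and 1 higher. In BALB/c against C57BL/6, edgeR called 1 of the 17, Acta2 (−1.15 ± 0.260 at adjusted p = 0.0468), and DESeq2 called 3, all lower. The Acta2 call ended on leaving out 1 of C57BL/6 replicates 1 and 3, IL-6 KO replicates 1 and 3 and BALB/c replicates 1, 2 and 3 (adjusted p between 0.0568 and 0.156).

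Other tissues moved with the groups. The skeletal muscle list summed to 68000 to 121000 CPM in C57BL/6, 33800 to 70800 in BALB/c, and only 11800 to 13600 in KO-labelled libraries (15 of 16 genes lower there than in C57BL/6). Growing hair genes summed to 17.5 to 119, 12.1 to 20.4 and 3370 to 17600 CPM (12 of 12 higher than in C57BL/6), with IL-6 KO replicate 2 lowest of its group. BALB/c replicate 1, where Kdr and the blood vessel sum were high, had an adipocyte sum of 10500 CPM, against 1170 to 4700 in the others. None of the genes in these lists was at 0 in every library, and their part in the members' levels was not tested. With IL-6 KO replicate 2 and BALB/c replicate 2 both left out, a choice made after seeing the data, 25 members were called in the KO-labelled libraries against C57BL/6 (22 blood vessel genes, Lyve1, Prox1 and Stab2), of which 21 were also called with all 9 libraries, 2 in BALB/c against C57BL/6, and 6 between those groups.

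**Figure D5:**
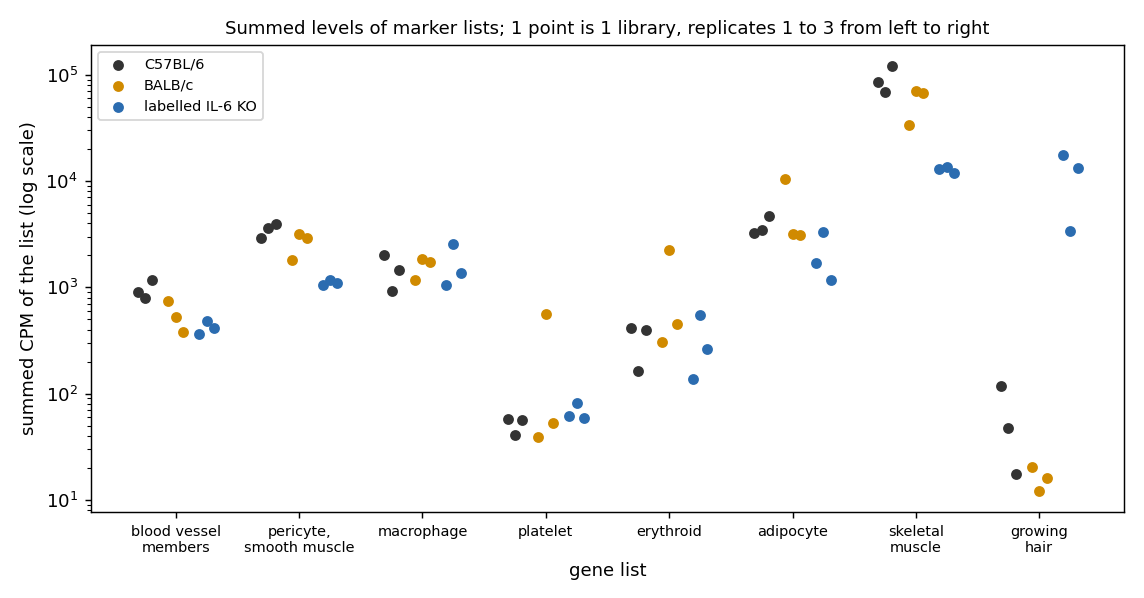
Summed CPM (log axis) of the 27 blood vessel members and of 7 marker lists; each point is 1 library, replicates 1 to 3 from left to right, coloured by group. BALB/c replicate 2 stands apart in the platelet and erythroid lists, BALB/c replicate 1 in the adipocyte list, and the KO-labelled libraries in the muscle, mural and growing hair lists.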

How the data were processed

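Each library has a table of exon reads per gene. The authors' deposited counts are whole reads, not normalized, and the exon lengths beside them, per the file headers, served only for levels per kilobase. RNA came from total skin RNA, per the labels' protocols, and the genome build is GRCm38, per the submitters' processing notes. The sources used here do not give the aligner or the counter. One file stacks 3 tables, and the first was used for C57BL/6 replicate 1.

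All 9 libraries entered 1 edgeR 4.0.16 quasi-likelihood fit (R 4.3.3), with a filter (minimum count 10, minimum total count 15) that left 14415 of 49585 genes, TMM scaling (factors from 0.887 to 1.10), 6 residual degrees of freedom, and Benjamini-Hochberg adjustment with a threshold of 0.05. DESeq2 1.42.0 was 1 of 18 alternatives. Class means used a pseudocount of 0.5 CPM. The members and lists were chosen with earlier results of these data known, and lists were given no test. Genes were named by rule, with exceptions stated where they occur: every called member, the lymphatic genes, the stabilins and up to 4 called genes per list and comparison, by smallest p. Samples with the same replicate number were checked for pairing, and did not pair.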

Additional observations from a re-analysis of the deposited data

How the results depend on the processing

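All 3 comparisons kept the direction of the blood vessel median under each of the 18 alternatives. The number of genes called in BALB/c against C57BL/6 was 491, and was 1024 with DESeq2, 255 with a replicate block and 167 to 977 with 1 library left out. Of the members, 5 were called there, and 3 with library size alone, 2 with the replicate block, 2 with IL-6 KO replicate 2 and BALB/c replicate 2 both left out (chosen after seeing the data), and 0 to 8 with 1 library left out. Against C57BL/6, the KO-labelled libraries had 3238 to 6806 genes and 13 to 26 members called with 1 library left out, against 5068 and 24, and the lymphatic median was −0.77, from −1.14 without IL-6 KO replicate 2 to −0.49 without C57BL/6 replicate 1, and −1.14 with both left out. Against BALB/c they had 3310 to 7044 genes and 1 to 9 members called, against 5370 and 7, and 4 members with library size alone, 3 with only the groups compared and 2 with the replicate block. The blood vessel median there, −0.56, ranged from −0.79 without BALB/c replicate 3 to −0.14 without BALB/c replicate 1. The lymphatic median there turned from 0.20 to −0.07 without BALB/c replicate 1 and −0.12 without IL-6 KO replicate 2. The mean lymphatic level relative to blood vessel genes in the KO-labelled libraries was −1.07 without Pdpn. The cause of these shifts was not tested.

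Library size alone moved the median of all genes from 0.01 to 0.15 in the KO-labelled libraries against C57BL/6, where 67.8% of called genes were then higher (54.6% with TMM), and 58.8% (47.9% with TMM) were higher in BALB/c. Over single genes and alternatives, a call was lost 158 times, gained 26 times and reversed 0 times. In the other 2384 cases nothing changed, and these include genes called neither in the main fit nor in the alternative. Same-numbered libraries had correlations of their deviations from −0.212 to 0.0617, so the replicate block joins libraries by number only, and it called 20 members and 4275 genes in the KO-labelled libraries against C57BL/6. Reads limit Prox1, Flt4, Mmrn1, Stab2 and Tal1, whose lowest libraries lie between 0 and 1.46 CPM.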
